A study of Mus musculus with 12 samples.

Results

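The genes described here are 37 members of the cell cycle and DNA replication machinery, out of 55322 rows in the table of the series. They were chosen by name, each matched to 1 row, with earlier results of these data known. Of the 37, 11 are genes of S phase, which copy DNA or supply its building blocks, and 26 are genes of G2 and mitosis (G2/M), which prepare and carry out division. All 37 reached the level required for testing, and 34 of them stood at 1 FPKM or more in each of the 12 libraries. FPKM is a read count divided by gene length and by the total of the library, so levels can be set beside each other between genes. Behind a member's value in 1 library stood between 46 reads (Bub1 in L-cDC1 replicate 3) and 7492 reads (Mcm6).

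In a dividing cell, the MCM proteins form the ring-shaped helicase that opens DNA, Pcna is the clamp that holds the polymerase on it, and ribonucleotide reductase makes its building blocks. Cyclins A and B with Cdk1 then drive entry into mitosis, in which Aurora and Polo kinases, the spindle, the centromere proteins and the anaphase-promoting complex separate the chromosomes. RNA of the S phase genes rises earlier in the cycle, through E2F factors, while many G2/M genes are held back by the DREAM complex through an element called CHR in their promoters and rise later. Conventional dendritic cells (cDCs) of the spleen present antigen to T cells. They arise from precursors in the marrow, and some still divide in the tissue.

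The study set cDCs of lymphoid origin, the subject of its title, beside other cDCs. RNA was sequenced from 4 groups of 3 libraries, L-cDC1 and M-cDC1 of one subset and, of the other subset, L-cDC2 with M-cDC2. The titles do not spell out L and M, which are used as given, and cDC1 and cDC2 are the main subsets of cDCs, which depend on different transcription factors. All cells were sorted from mouse spleen. Every sample carries the same genotype label, Il7r-cre; Rosa26-lsl-tdTomato, whereas the design text calls the mice wild type C57BL/6J, naïve, and the protocol gives an age of 7 to 8 weeks. With those alleles, a cell that has at any time expressed Il7r is marked for good by the red reporter, and so are its descendants. Lymphocytes share that history, and whether the reporter was used to sort a given library is not in the labels. Nothing ties the replicates to separate animals, so a p-value measures only how far these samples spread, and that spread may be technical.

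RefSeq promoter windows, which run from 250 bases before to 50 bases after an annotated start on mouse build GRCm38.p6, were found for 32 of the members, 10 of S phase and 22 of G2/M. No window was found for Mcm4, Ccna2, Kif20a, Aurkb and Tpx2. The windows were searched on both strands for E2F-like letters (TTCCCGC and TTCGCGC, besides the variants TTGCCGC and also TTGGCGC), for CHR (TTTGAA) and for the CCAAT box (named by its letters). E2F-like letters stood in the windows of 6 of 10 S phase members (60%) and 4 of 22 G2/M members (18.2%), and in 9.57% of all 32851 windows. CHR letters stood in those of 1 of 10 S phase members (10%) and 17 of 22 G2/M members (77.3%), and in 17.9% of all windows. The CCAAT box stood in those of 8 of 10 (80%) and 19 of 22 (86.4%), and in 37.4% of all windows. A window with both CHR and CCAAT belonged to 16 of 22 G2/M members (72.7%) and to 1 of 10 S phase members, Mcm2, against 6.95% of all windows. These are matches of letters, not measured binding.

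**Figure D1:**
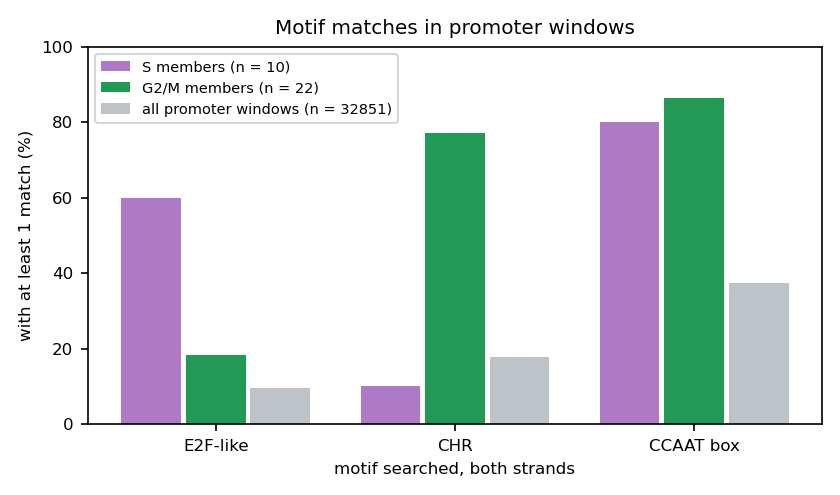
Bars give the percentage of RefSeq promoter windows that hold at least 1 match to each motif on either strand, for 10 S phase members, 22 G2/M members and all 32851 windows. E2F-like letters were most frequent among S phase members (60%), CHR letters among G2/M members (77.3%), and the CCAAT box was frequent in both (80% and 86.4%).

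The upstream 250 bases of 6 windows are shown, because these genes differed most firmly between cDC1 and cDC2 within L among members whose upstream bases hold a match. Nusap1 and Birc5 had the smallest p within L of all G2/M members. Their windows held no match to CHR, to the CCAAT box or to E2F-like letters, so they are not shown. Capitals mark the matches, each sequence runs 5′ to 3′ along the strand of its gene, and positions count back from the annotated start, with the last base shown as -1. A match on the other strand appears as its reverse complement, so that CHR there reads TTCAAA and the CCAAT box ATTGG. The S phase genes are Rrm2 (chr12:24708004-24708253, plus strand), Pcna (chr2:132253181-132253430, minus strand) and Rrm1 (chr7:102441445-102441694, plus strand). Rrm2 holds E2F-like letters at -235 and a CCAAT box at -50. Pcna holds a CCAAT box at -87. Rrm1 holds E2F-like letters at -67 between CCAAT boxes at -91 and -45.
Rrm2: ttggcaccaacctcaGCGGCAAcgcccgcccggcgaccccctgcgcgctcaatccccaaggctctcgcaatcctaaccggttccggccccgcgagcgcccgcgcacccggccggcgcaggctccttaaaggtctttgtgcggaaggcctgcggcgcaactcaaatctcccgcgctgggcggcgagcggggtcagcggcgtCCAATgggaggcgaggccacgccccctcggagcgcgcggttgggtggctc
Pcna: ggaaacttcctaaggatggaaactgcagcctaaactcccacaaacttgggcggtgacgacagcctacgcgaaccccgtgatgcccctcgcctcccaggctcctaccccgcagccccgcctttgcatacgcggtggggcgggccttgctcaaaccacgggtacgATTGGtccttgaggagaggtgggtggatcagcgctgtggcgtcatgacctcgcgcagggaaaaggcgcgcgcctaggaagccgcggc
Rrm1: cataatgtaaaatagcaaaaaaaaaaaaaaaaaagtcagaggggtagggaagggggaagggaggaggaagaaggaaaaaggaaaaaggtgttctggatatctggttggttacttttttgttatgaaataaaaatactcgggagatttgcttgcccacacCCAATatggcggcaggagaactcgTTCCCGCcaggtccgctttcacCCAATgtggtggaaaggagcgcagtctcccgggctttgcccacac

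The G2/M genes are Ube2c (chr2:164769679-164769928, plus strand), Top2a (chr11:99024190-99024439, minus strand) and Cdc20 (chr4:118437344-118437593, minus strand). Each holds CHR letters close to the start, at -29 in Ube2c, at -23 in Top2a and at -18 in Cdc20. Top2a has a further CHR match at -179. CCAAT boxes, on one strand or the other, stand at 6 places in Ube2c, of which the pair at -186 and -183 overlap, at 6 places in Top2a and at 2 places in Cdc20.
Ube2c: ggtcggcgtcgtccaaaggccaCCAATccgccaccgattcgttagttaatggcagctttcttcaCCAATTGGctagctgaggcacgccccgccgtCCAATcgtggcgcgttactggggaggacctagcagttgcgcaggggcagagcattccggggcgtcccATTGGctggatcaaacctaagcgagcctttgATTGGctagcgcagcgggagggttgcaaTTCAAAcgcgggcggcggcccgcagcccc
Top2a: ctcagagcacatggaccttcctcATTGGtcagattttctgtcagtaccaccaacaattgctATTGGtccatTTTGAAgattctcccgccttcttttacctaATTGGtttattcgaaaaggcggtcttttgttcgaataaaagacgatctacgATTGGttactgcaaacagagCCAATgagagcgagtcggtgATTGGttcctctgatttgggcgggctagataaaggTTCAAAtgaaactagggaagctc
Cdc20: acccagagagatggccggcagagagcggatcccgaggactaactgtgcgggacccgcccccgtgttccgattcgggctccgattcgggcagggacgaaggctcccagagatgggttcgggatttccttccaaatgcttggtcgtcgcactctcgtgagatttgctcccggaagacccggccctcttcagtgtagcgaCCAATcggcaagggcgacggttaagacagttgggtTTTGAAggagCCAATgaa

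Depth ran from 15879864 reads in M-cDC2 replicate 2 to 24498235 reads in M-cDC2 replicate 1, recovered from the FPKM values as described with the processing. Markers of the subsets followed the labels: 8 cDC1 markers summed to 1348 to 1433 FPKM in L-cDC1 libraries and 1376 to 1383 in M-cDC1, against 66.6 to 77.6 in L-cDC2 and 80.8 to 84.2 in M-cDC2. The 8 cDC2 markers summed to 13.3 to 16.8 in L-cDC1 and 14.7 to 15.0 in M-cDC1, against 756 to 888 in L-cDC2 and 884 to 1014 in M-cDC2. Markers common to cDCs, 6 in number, summed to at least 25007 FPKM in every library. Libraries were not strand-marked, and Prc1 was the only member whose exons overlapped those of another gene in the table, by 142 bases with Rccd1 on the other strand. Pseudogenes named after Ccnb1, Ccnb2, Tyms and Pcna were listed at 1.05 FPKM at most. The table's build is not given in the sources used here, so the members' positions in it are left at the chromosome: 7 lie on chromosome 2, 5 on chromosome 11, and the others on 14 further chromosomes.

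Division genes of both classes were detected in all 4 groups, and both summed levels were lower in cDC1 than in cDC2. The 26 G2/M members together summed to 195.6 ± 5.37 FPKM in L-cDC1 libraries and 223 ± 21.7 in M-cDC1, against 389 ± 17.1 in L-cDC2 and 351 ± 65.1 in M-cDC2 (SD, n = 3 each). The 11 S phase members summed to 339 ± 30.9 in L-cDC1 and 362 ± 30.3 in M-cDC1, against 437 ± 40.9 in L-cDC2 and 425 ± 15.2 in M-cDC2. In every library the G2/M sum lay below the S phase sum. It was 55.3% to 63.2% of the S phase sum in L-cDC1 and 59.2% to 65.1% in M-cDC1, against 79.2% to 96.4% in L-cDC2. In the M-cDC2 libraries it was 68.0%, 91.5% and 87.9%. All 6 cDC1 libraries thus lay below all 6 cDC2 libraries in the G2/M sum and in this percentage. In these bulk samples, fewer cells in a phase of the cycle and less RNA per cell cannot be told apart.

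**Figure D2:**
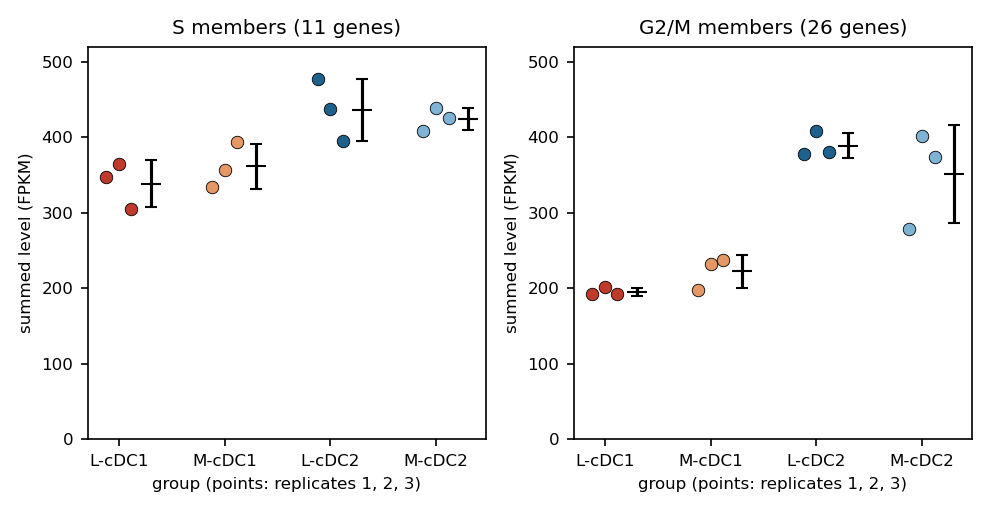
Points give the summed FPKM of the 11 S phase members (left) and the 26 G2/M members (right) in each library, and bars give the mean ± SD of 3 libraries. G2/M sums of cDC1 libraries run from 192 to 238 FPKM and those of cDC2 libraries from 278 to 409, with M-cDC2 replicate 1 the lowest of the cDC2 libraries.

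The same order held for most members taken singly. Among G2/M members the highest group mean was in L-cDC2 for 22 and in M-cDC2 for 4, and the lowest in L-cDC1 for 16, in M-cDC1 for 9 and in L-cDC2 for 1, which was Kif23. Among S phase members the highest mean was in L-cDC2 for 6, in M-cDC2 for 3, in L-cDC1 for 1 and in M-cDC1 for 1. Replicates varied more in G2/M genes than in S phase genes in 3 of the 4 groups: the median coefficient of variation was 18.8% and 14.0% in L-cDC1, 15.4% and 11.0% in M-cDC1, and 22.4% and 8.22% in M-cDC2. In L-cDC2 the medians were 13.6% for G2/M genes and 14.0% for S phase genes. M-cDC2 replicate 1, the deepest library, was the lowest of its group in 25 of 26 G2/M members and in 4 of 11 S phase members. M-cDC1 replicate 1 was the lowest of its group in 17 of 26 G2/M members, and L-cDC1 replicate 2 was the highest of its group in 16 of 26 G2/M members and in 9 of 11 S phase members.

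**Figure D3:**
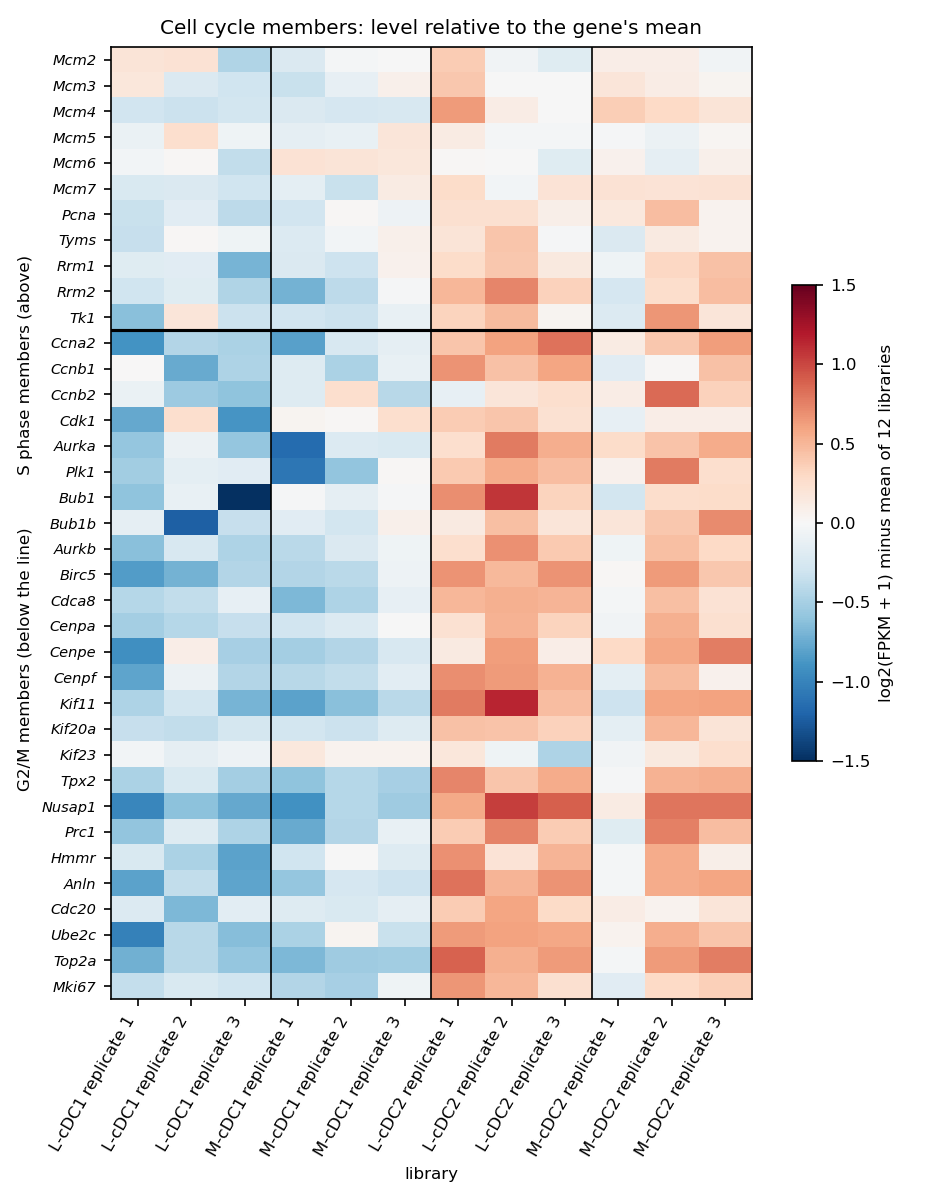
Each row is a member and each column a library; colour gives log2(FPKM + 1) minus the mean of the gene over the 12 libraries. G2/M rows below the thick line are mostly blue in the 6 cDC1 columns and red in the cDC2 columns, with M-cDC2 replicate 1 paler than its group, and the rows of Mcm2, Mcm5 and Kif23 show little contrast between subsets.

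The S phase members with the highest levels were Pcna, Mcm6 and Mcm3. Pcna, the sliding clamp, stood at 51.8, 58.0 and 49.4 FPKM in L-cDC1 and at 53.4, 66.2 and 61.8 in M-cDC1, against 77.2, 77.5 and 69.2 in L-cDC2 and 73.2, 90.1 and 67.7 in M-cDC2. All 6 cDC1 values lay below all 6 cDC2 values, while L and M overlapped within each subset. Mcm6, a subunit of the helicase, stood at 59.5, 61.8 and 47.2 in L-cDC1 and at 71.5, 69.9 and 69.0 in M-cDC1, against 61.8, 61.0 and 53.8 in L-cDC2 and 64.0, 55.7 and 64.8 in M-cDC2. Its M-cDC1 libraries were the highest of the 12. Mcm3, another subunit, stood at 56.8, 43.2 and 40.6 in L-cDC1 and at 39.7, 46.2 and 53.2 in M-cDC1, against 66.8, 50.0 and 50.3 in L-cDC2 and 57.4, 54.7 and 51.8 in M-cDC2. Its values overlapped between L-cDC1 and L-cDC2 and between M-cDC1 and M-cDC2.

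Mcm4 and Rrm2 were, with Pcna, the S phase members with the smallest p between the subsets, within L and within M. Mcm4, a helicase subunit, was tightly grouped in cDC1, at 31.5, 30.8 and 31.6 FPKM in L-cDC1 libraries and 33.2, 32.3 and 32.5 in M-cDC1, against 60.6, 41.9 and 38.4 in L-cDC2 and 50.0, 47.7 and 44.5 in M-cDC2. Every cDC2 value was above every cDC1 value. Rrm2, the small subunit of ribonucleotide reductase, which cells make mainly in S phase, stood at 35.1, 38.1 and 31.6 in L-cDC1 and at 26.2, 32.8 and 43.0 in M-cDC1, against 62.1, 73.2 and 55.6 in L-cDC2 and 36.4, 52.4 and 60.2 in M-cDC2. The groups were apart within L, and within M the highest M-cDC1 value exceeded the lowest M-cDC2 value.

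Among G2/M members, Ccnb2, Cdc20 and Birc5 had the highest levels. Ccnb2, which encodes cyclin B2, stood at 36.0, 26.2 and 25.1 FPKM in L-cDC1 and at 33.7, 46.2 and 28.9 in M-cDC1, against 35.4, 44.0 and 46.3 in L-cDC2 and 42.0, 70.3 and 49.3 in M-cDC2. Its cDC1 and cDC2 libraries overlapped both within L and within M. Cdc20, an activator of the anaphase-promoting complex, stood at 19.3, 13.6 and 19.996 in L-cDC1 and at 19.4, 19.0 and 20.3 in M-cDC1, against 29.3, 34.3 and 27.5 in L-cDC2 and 24.1, 23.3 and 25.4 in M-cDC2. Birc5, which encodes survivin of the chromosomal passenger complex, stood at 8.55, 9.38 and 11.6 in L-cDC1 and at 11.6, 11.9 and 15.2 in M-cDC1, against 26.2, 22.8 and 26.3 in L-cDC2 and 16.2, 25.6 and 21.6 in M-cDC2. For Cdc20 and Birc5 all cDC1 libraries lay below all cDC2 libraries.

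Nusap1, Top2a, Tpx2 and Ube2c had the firmest differences between subsets, together with Birc5. Nusap1, which bundles spindle microtubules, stood at 4.04, 5.49 and 4.84 FPKM in L-cDC1 and at 4.32, 6.40 and 5.87 in M-cDC1, against 13.8, 19.4 and 17.5 in L-cDC2 and 9.84, 16.4 and 16.3 in M-cDC2. Top2a, the topoisomerase that untangles chromosomes, stood at 8.61, 10.9 and 9.57 in L-cDC1 and at 8.94, 9.88 and 10.04 in M-cDC1, against 28.3, 21.8 and 23.6 in L-cDC2 and 14.5, 23.6 and 25.9 in M-cDC2. In both genes the lowest cDC2 library, M-cDC2 replicate 1, was still above every cDC1 library. Tpx2, an activator of Aurora A on the spindle, stood at 7.17, 8.71 and 6.98 in L-cDC1 and at 6.47, 7.44 and 7.07 in M-cDC1, against 17.9, 14.2 and 15.8 in L-cDC2 and 10.2, 15.3 and 15.5 in M-cDC2. Ube2c, the ubiquitin-conjugating enzyme of the anaphase-promoting complex, stood at 5.55, 8.85 and 7.49 in L-cDC1 and at 8.48, 12.6 and 9.49 in M-cDC1, against 19.5, 19.1 and 18.7 in L-cDC2 and 12.6, 18.2 and 16.6 in M-cDC2. Within L the Ube2c groups were far apart, and within M the highest M-cDC1 library lay just under the lowest M-cDC2 library.

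The remaining S phase members are given by group means in FPKM, each ± SD with n = 3. Mcm7, a helicase subunit, averaged 26.8 ± 0.82 in L-cDC1 and 29.7 ± 4.94 in M-cDC1, against 35.8 ± 4.105 in L-cDC2 and 37.3 ± 0.16 in M-cDC2. Rrm1, the large subunit of ribonucleotide reductase, averaged 8.601 ± 1.87 in L-cDC1 and 9.896 ± 1.52 in M-cDC1, against 13.6 ± 1.27 in L-cDC2 and 13.3 ± 2.52 in M-cDC2. In both the cDC1 means lay below the cDC2 means. Tyms, the enzyme that makes thymidylate, averaged 8.42 ± 1.18 in L-cDC1 and 8.900 ± 0.98 in M-cDC1, against 10.9 ± 1.78 in L-cDC2 and 9.23 ± 1.25 in M-cDC2. Tk1, which salvages thymidine, averaged 7.99 ± 2.601 in L-cDC1 and 7.82 ± 0.71 in M-cDC1, against 11.8 ± 1.896 in L-cDC2 and 11.4 ± 3.73 in M-cDC2. Both had their highest mean in L-cDC2. Mcm2 averaged 20.1 ± 5.11 in L-cDC1 and 18.7 ± 1.58 in M-cDC1, against 20.9 ± 4.67 in L-cDC2 and 20.6 ± 1.26 in M-cDC2. Mcm5 averaged 44.6 ± 6.398 in L-cDC1 and 43.02 ± 5.604 in M-cDC1, against 44.1 ± 2.67 in L-cDC2 and 42.5 ± 1.76 in M-cDC2. The group means of these helicase subunits lay close together.

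The remaining G2/M members are given in the same way, by role. Ccna2, which encodes cyclin A2, averaged 9.83 ± 1.79 in L-cDC1 and 11.7 ± 2.95 in M-cDC1, against 24.1 ± 3.52 in L-cDC2 and 20.5 ± 3.71 in M-cDC2. Ccnb1 averaged 5.77 ± 1.85 in L-cDC1 and 6.36 ± 0.96 in M-cDC1, against 12.03 ± 1.06 in L-cDC2 and 8.51 ± 2.12 in M-cDC2. The cyclin A2 means of the cDC2 groups were well above those of the cDC1 groups, and the cyclin B1 mean was highest in L-cDC2. Aurka, the Aurora kinase of the spindle poles, averaged 9.204 ± 2.11 in L-cDC1 and 8.72 ± 3.18 in M-cDC1, against 18.5 ± 3.53 in L-cDC2 and 17.1 ± 1.74 in M-cDC2. Plk1, the Polo kinase, averaged 8.21 ± 1.28 in L-cDC1 and 6.98 ± 3.03 in M-cDC1, against 14.4 ± 0.86 in L-cDC2 and 13.7 ± 3.94 in M-cDC2. Bub1b, a kinase-like protein of the spindle checkpoint, averaged 7.52 ± 3.003 in L-cDC1 and 10.1 ± 1.41 in M-cDC1, against 13.4 ± 1.75 in L-cDC2 and 15.5 ± 3.07 in M-cDC2. All these kinase means were lower in cDC1. Aurkb, the kinase of the chromosomal passenger complex, averaged 11.8 ± 1.72 in L-cDC1 and 13.8 ± 1.71 in M-cDC1, against 22.6 ± 3.71 in L-cDC2 and 19.5 ± 3.67 in M-cDC2. Cdca8, the borealin subunit of that complex, averaged 8.04 ± 1.05 in L-cDC1 and 7.42 ± 1.62 in M-cDC1, against 14.9 ± 0.14 in L-cDC2 and 12.01 ± 2.15 in M-cDC2. Both, like Birc5, had lower means in the cDC1 groups.

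Of the centromere genes, Cenpa, the histone that marks centromeres, averaged 6.05 ± 0.39 in L-cDC1 and 7.46 ± 0.85 in M-cDC1, against 11.2 ± 1.26 in L-cDC2 and 10.3 ± 2.32 in M-cDC2. Cenpe, a kinetochore motor, averaged 2.02 ± 1.09 in L-cDC1 and 1.98 ± 0.29 in M-cDC1, against 3.85 ± 1.05 in L-cDC2 and 4.78 ± 0.93 in M-cDC2. Cenpf averaged 0.90 ± 0.46 in L-cDC1 and 1.03 ± 0.21 in M-cDC1, against 2.87 ± 0.24 in L-cDC2 and 1.81 ± 0.63 in M-cDC2. All 3 were lower in the cDC1 groups, Cenpe with its highest mean in M-cDC2. Among spindle genes, Kif11 averaged 4.19 ± 0.74 in L-cDC1 and 3.74 ± 0.65 in M-cDC1, against 11.7 ± 2.996 in L-cDC2 and 8.199 ± 2.94 in M-cDC2. Kif20a, a motor needed for cytokinesis, averaged 6.16 ± 0.27 in L-cDC1 and 6.46 ± 0.32 in M-cDC1, against 10.8 ± 0.38 in L-cDC2 and 9.31 ± 2.297 in M-cDC2. Prc1, which bundles the central spindle, averaged 2.91 ± 0.56 in L-cDC1 and 2.897 ± 0.86 in M-cDC1, against 6.398 ± 1.09 in L-cDC2 and 5.84 ± 2.12 in M-cDC2. These means were lower in cDC1, while those of Kif23, a motor of the central spindle, did not order by subset, at 6.997 ± 0.27 in L-cDC1 and at 8.02 ± 0.39 in M-cDC1, against 6.93 ± 1.71 in L-cDC2 and 8.21 ± 0.996 in M-cDC2. Hmmr, a protein of spindle microtubules, averaged 2.34 ± 0.65 in L-cDC1 and 3.19 ± 0.43 in M-cDC1, against 5.54 ± 1.08 in L-cDC2 and 4.48 ± 1.23 in M-cDC2. Anln, the cytokinesis scaffold anillin, averaged 0.51 ± 0.27 in L-cDC1 and 0.82 ± 0.21 in M-cDC1, against 2.75 ± 0.40 in L-cDC2 and 2.11 ± 0.69 in M-cDC2. Anln reached 1 FPKM in the 6 cDC2 libraries only, and Cenpf in those and in 2 of 6 cDC1 libraries, so both entered the tests through the group in which they were high. Mki67, the proliferation marker Ki-67, averaged 9.49 ± 0.45 in L-cDC1 and 9.27 ± 1.76 in M-cDC1, against 16.9 ± 2.599 in L-cDC2 and 13.6 ± 2.76 in M-cDC2.

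**Figure D4:**
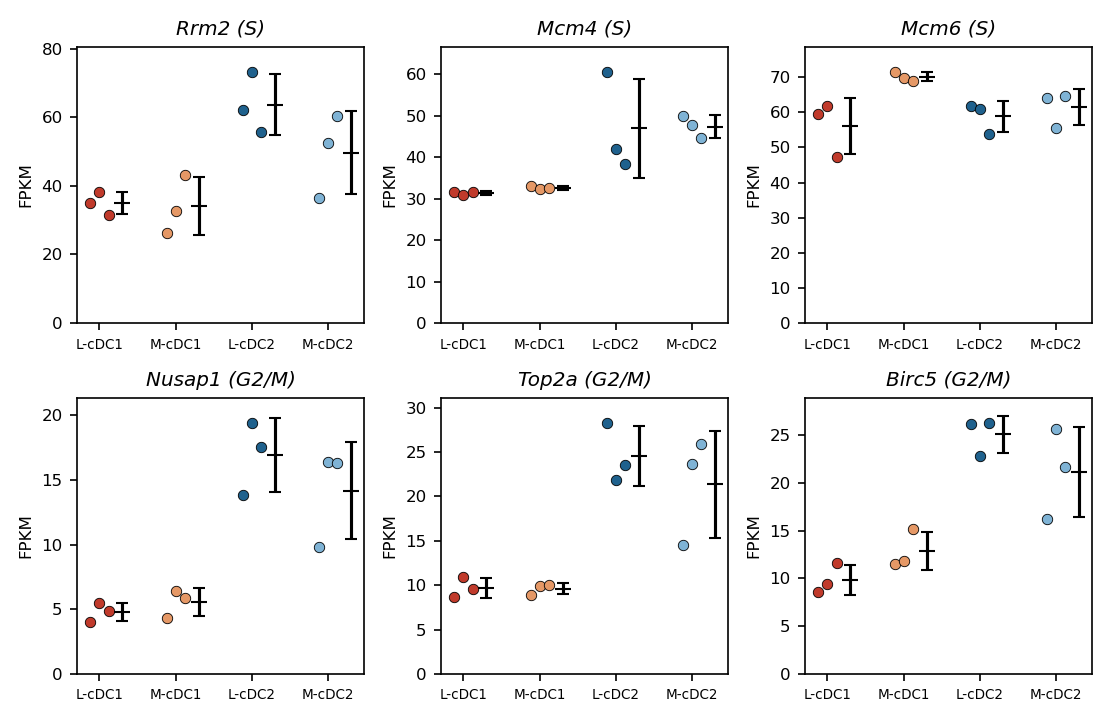
FPKM of 3 S phase members (top) and 3 G2/M members (bottom) in each library, with bars for the mean ± SD of 3 libraries; every axis starts at 0. Nusap1, Top2a and Birc5 lie lower in all 6 cDC1 libraries than in any cDC2 library, Rrm2 and Mcm4 are also lower in cDC1 on average, and Mcm6 is highest in M-cDC1.

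Setting cDC1 against cDC2, within L and within M, asks to what extent the subsets differ in division genes. Differences are on the log2(FPKM + 1) scale, cDC1 minus cDC2, with a standard error (SE) from limma, and a gene was called at a Benjamini-Hochberg adjusted p under 0.05 over the 12434 genes tested. Within L, 24 of 26 G2/M members (92.3%) were lower in L-cDC1 than in L-cDC2 and 0 were higher. Without Anln and Cenpf, which entered the tests through the cDC2 libraries, the count was 22 of 24. Of all genes tested 39.5% were called, 26.6% lower and 12.9% higher. The median over the G2/M members was -0.93, and -0.90 without Anln and Cenpf, beside -0.19 over all genes. Of the 26, Nusap1 fell the furthest. It fell by 1.62 (SE 0.21, limma adjusted p = 2.65e-05), to 4.79 ± 0.73 FPKM in L-cDC1, against 16.9 ± 2.85 in L-cDC2 (SD, n = 3 each). Birc5 fell by 1.27 (SE 0.17, limma adjusted p = 4.3e-05) and Ube2c fell by 1.3 (SE 0.18, limma adjusted p = 6.7e-05).

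By role, the G2/M calls within L covered every part of the division machinery listed. All 4 mitotic kinases were lower in L-cDC1, from -0.75 for Plk1 to -1.43 for Bub1, which acts in the spindle checkpoint. All 3 chromosomal passenger genes, all 3 centromere genes, both genes of the anaphase-promoting complex and both chromosome genes were lower as well, with medians of -0.88, -0.79, -1.03 and -1.01. Of 8 spindle and cytokinesis genes 7 were lower, with a median of -0.97. They included Kif11, the motor that pushes spindle poles apart, at -1.28. Ccna2 (cyclin A2), Ccnb1 (cyclin B1) and Cdk1 were lower by differences of -1.22, -0.97 and -0.81. The 2 that did not pass were Ccnb2, at -0.52 (95% interval -0.97 to -0.07, limma adjusted p = 0.0643), and Kif23, at 0.04 (-0.32 to 0.39, adjusted p = 0.882). In 23 of 26 G2/M members every L-cDC1 library lay below every L-cDC2 library, where 32.7% of all genes tested did so. Anln and Cenpf are among the 23. They also stand in the counts and medians of the spindle and cytokinesis genes and of the centromere genes.

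Fewer S phase members passed within L. Of 11, 5 (45.5%) were lower in L-cDC1, beside 26.6% of all genes, and 0 were higher. The median was -0.40, beside -0.19 over all genes. Rrm2 fell by 0.84 (SE 0.19, limma adjusted p = 0.00359), to 34.9 ± 3.26 FPKM in L-cDC1, against 63.6 ± 8.88 in L-cDC2 (SD, n = 3 each), and Rrm1 fell by 0.62 (adjusted p = 0.0141). Mcm4, Pcna and Mcm7 were lower at -0.54, -0.49 and -0.40. The other helicase subunits did not pass, with differences of -0.06 for Mcm2, -0.25 for Mcm3, 0.01 for Mcm5 and -0.07 for Mcm6. Tyms and Tk1 did not pass either, at -0.33 and -0.53. In all 5 called members, and in no other S phase member, the L groups did not overlap. Of all genes tested, 32.7% had every L-cDC1 library below every L-cDC2 library.

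Within M, 16 of 26 G2/M members (61.5%) were lower in M-cDC1 than in M-cDC2 and 0 were higher. Without Anln and Cenpf the count was 15 of 24. Of all genes tested 38.1% were called, 25.4% lower and 12.7% higher. The median over the G2/M members was -0.57, with or without Anln and Cenpf, beside -0.18 over all genes. Nusap1 fell by 1.2 (SE 0.21, limma adjusted p = 0.000417), to 5.53 ± 1.08 FPKM in M-cDC1, against 14.2 ± 3.74 in M-cDC2 (SD, n = 3 each). Top2a fell by 1.04 (SE 0.18, limma adjusted p = 0.000553) and Tpx2 fell by 0.86 (SE 0.16, adjusted p = 0.000986). All 3 chromosomal passenger genes, 6 of 8 spindle and cytokinesis genes, both chromosome genes, and Ccna2, Aurka, Plk1, Cenpe and Ube2c were among the 16. Values of those that did not pass ran from -0.56 for Bub1b (limma adjusted p = 0.0834), to 0.08 for Cdk1 (95% interval -0.43 to 0.59). Groups did not overlap, with M-cDC1 lower, in 16 of 26 G2/M members, where 34.2% of all genes tested did so. Anln and Cenpf are among those without overlap, and Anln is among the 6 spindle and cytokinesis genes.

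Of 11 S phase members 3 (27.3%) were lower in M-cDC1, a share close to the 25.4% of all genes, and 0 were higher. They were Mcm4, which fell by 0.52 (SE 0.14, limma adjusted p = 0.00904), Pcna, which fell by 0.34 (adjusted p = 0.0431), and Rrm2, which fell by 0.53 (adjusted p = 0.0452). The median of the class was -0.33. Mcm7 did not pass, at -0.33 (limma adjusted p = 0.0501). Groups did not overlap, with M-cDC1 lower, in 3 of 11 S phase members (Mcm4, Pcna and Mcm7), where 34.2% of all genes tested did so. Mcm6 ran the other way, at 0.19 (limma adjusted p = 0.215), with every M-cDC1 library above every M-cDC2 library, where 16.9% of all genes tested showed that order.

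The medians of both classes stayed negative under both rescalings tried, in which the called genes of the whole table split about evenly between directions, but fewer members passed, and within M under median-of-ratios scaling the only S phase call was Mcm6, which was higher in M-cDC1. The deposited scale put the median of all genes at -0.18 within M and -0.19 within L, and median-of-ratios scaling put it at -0.03 and -0.04. Of the genes called, 33.2% were higher in M-cDC1 on the deposited scale, 48.9% with median-of-ratios scaling and 53.4% with quantile normalization; within L the shares were 32.7%, 48.7% and 52.6%. Under median-of-ratios scaling the G2/M counts were 21 lower within L and 10 within M, and under quantile normalization 19 and 7, with 0 higher in each. The S phase median within M was -0.14 under median-of-ratios scaling and -0.16 under quantile normalization. The S phase counts became 1 lower within L and 0 lower and 1 higher (Mcm6) within M under median-of-ratios scaling, and 3 and 1 lower under quantile normalization. Of the 12434 genes tested, 2370 were lower within L and 2271 within M under median-of-ratios scaling. Under quantile normalization 2098 and 1967 were lower. The G2/M count within M also rested on single libraries. It was 9 without M-cDC2 replicate 2, 9 without M-cDC2 replicate 3 and 10 without M-cDC1 replicate 1, and 18 without M-cDC2 replicate 1. The S phase count within M was 1 without any 1 of L-cDC1 replicate 1, M-cDC1 replicate 1, L-cDC2 replicates 1 or 3 and M-cDC2 replicate 2, and within L it was 3 without L-cDC1 replicate 3. Ccna2, Aurka, Birc5, Tpx2, Nusap1 and Top2a passed within M under all 21 alternatives run, and within L 19 of the 24 G2/M members and Rrm2 did. Among the S phase calls within M, Pcna and Rrm2 each failed to pass under 14 of the 21 alternatives, and Mcm4 under 1.

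**Figure D5:**
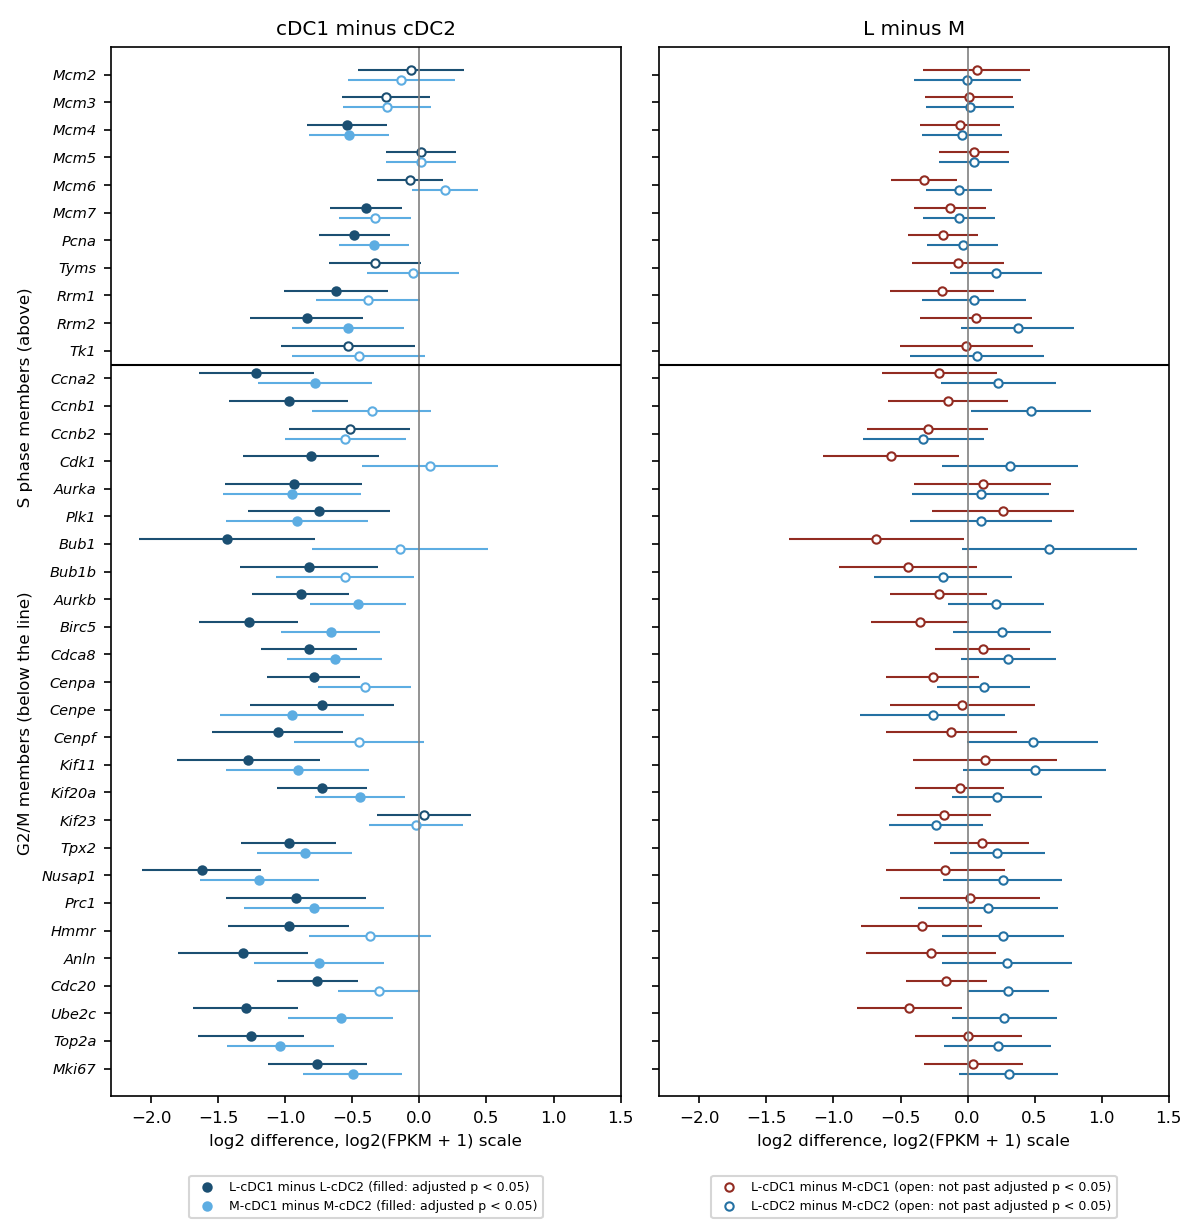
Points give the limma difference on the log2(FPKM + 1) scale for each member, with 95% intervals; the left panel shows cDC1 minus cDC2 within L (dark) and within M (light), the right panel L minus M within cDC1 (red) and cDC2 (blue), and filled points passed an adjusted p under 0.05. On the left 24 of 26 G2/M members are filled within L and 16 within M, beside 5 and 3 of 11 S phase members, and on the right no point is filled.

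The 16 G2/M members lower in M-cDC1 were all among the 24 lower in L-cDC1. Ccnb1, Cdk1, Bub1, Bub1b, Cenpa, Cenpf, Hmmr and Cdc20 passed within L and not within M. Whether the subset difference itself changed between L and M was tested by the interaction, which is L minus M in cDC1 minus the same in cDC2. It called 0 of 11 S phase and 0 of 26 G2/M members with limma, and 0.298% of all genes; voom on recovered reads also called 0 in both classes. The share of all genes at an unadjusted p under 0.05 was not counted. At that threshold the interaction held 0 S phase members and 5 G2/M members. These were Cdk1, Bub1, Birc5, Cdc20 and Ube2c, all with a negative value. The largest was Bub1, at -1.29 (95% interval -2.22 to -0.37, limma adjusted p = 0.379). The interaction was negative for 21 of 26 G2/M members and 10 of 11 S phase members, with medians of -0.37 and -0.08. Of the 12434 genes tested, 6290 were negative, with a median of -0.0048. Without M-cDC2 replicate 1, the lowest of its group in 25 of 26 G2/M members, the G2/M median was -0.17. The lowest bound of any G2/M member's interval was that of Bub1, and the highest bound was 0.99.

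Setting L against M asks whether cells of the same subset differ in division genes. No member passed in either subset. In cDC1, limma called 0 of 11 S phase and 0 of 26 G2/M members, where 0.394% of all genes tested were called, and voom called 0 as well. The G2/M median was -0.16 and the S phase median -0.06, beside 0.02 over all genes, and 18 of 26 and 7 of 11 members had a negative value. Of the 12434 genes tested, 5829 had a negative value. At an unadjusted p under 0.05 stood 1 S phase member, Mcm6, and 3 G2/M members, Cdk1, Bub1 and Ube2c, all lower in L-cDC1. The share of all genes at that threshold was not counted. Mcm6 differed by -0.33 (95% interval -0.57 to -0.08, limma adjusted p = 0.33), with no overlap between L-cDC1 and M-cDC1. Groups did not overlap, with L-cDC1 lower, in 2 of 11 S phase members (Mcm4 and Mcm6) and 2 of 26 G2/M members (Cenpa and Kif23), where 5.63% of all genes tested did so.

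Cdk1, Bub1 and Ccnb1 are given in full because of their unadjusted values, so they were chosen after these were seen. Cdk1, the kinase of mitotic entry, stood at 4.16, 9.46 and 3.79 FPKM in L-cDC1, beside 8.10, 7.92 and 9.47 in M-cDC1, and differed by -0.57 (95% interval -1.08 to -0.06, limma adjusted p = 0.417). L-cDC1 replicate 2 was level with M-cDC1, and the other 2 L-cDC1 libraries were below it. Without L-cDC1 replicate 2, Cdk1 passed both in this comparison, at -0.93 (limma adjusted p = 0.0231), and in the interaction, at -1.24 (adjusted p = 0.0328); its adjusted p over all alternatives ran up to 0.761 in each. Bub1 stood at 1.89, 3.07 and 0.552 in L-cDC1, beside 3.34, 2.98 and 3.35 in M-cDC1, and differed by -0.68 (95% interval -1.33 to -0.03, adjusted p = 0.465). Again L-cDC1 replicate 2 overlapped M-cDC1. In cDC2 the order was the other way, with Cdk1 at 10.4, 10.8 and 9.30 in L-cDC2, against 7.11, 8.41 and 8.45 in M-cDC2, and Bub1 at 6.08, 8.199 and 4.54 in L-cDC2, against 2.63, 4.28 and 4.29 in M-cDC2. Every L-cDC2 library lay above every M-cDC2 library in both genes.

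In cDC2, limma and voom each called 0 of 11 S phase and 0 of 26 G2/M members, where limma called 1.83% of all genes tested. Here 22 of 26 G2/M members were positive, with a median of 0.24, beside 0.03 over all genes and 0.02 for S phase members. Of the 12434 genes tested, 6808 were positive. At an unadjusted p under 0.05 stood 0 S phase members and 2 G2/M members, Ccnb1 and Cdc20, both higher in L-cDC2. The share of all genes at that threshold was not counted. Ccnb1 stood at 13.0, 10.9 and 12.2 FPKM in L-cDC2, against 6.77, 7.90 and 10.9 in M-cDC2, and differed by 0.47 (95% interval 0.03 to 0.92, limma adjusted p = 0.447). Its lowest L-cDC2 library lay just above the highest M-cDC2 library. In 7 of 26 G2/M members every L-cDC2 library lay above every M-cDC2 library, where 9.96% of all genes tested did so, and in 0 of 11 S phase members. Without M-cDC2 replicate 1, the deepest library and the lowest of its group in G2/M genes, the G2/M median was 0.07. The lowest bound of any G2/M member's 95% interval was -0.80, and the highest was 1.26.

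Other genes of the cycle were described from lists chosen by function. Of 50 other replication genes, 17 were lower and 1 was higher in L-cDC1 than in L-cDC2, and 9 were lower and 1 was higher in M-cDC1 than in M-cDC2, with medians of -0.39 and -0.19. Those lower made up 34% within L and 18% within M, beside 26.6% and 25.4% of all genes. Cdc7, the kinase that fires replication origins, averaged 5.18 ± 0.51 FPKM in L-cDC1, against 15.8 ± 1.67 in L-cDC2, and 5.49 ± 1.13 in M-cDC1, against 11.5 ± 2.07 in M-cDC2 (SD, n = 3 each). The differences were -1.44 within L and -0.94 within M. Dctpp1, a pyrophosphatase that clears modified nucleotides, was the 1 that was higher, by 1.11 within L and 1.3 within M. Of 56 other mitosis genes tested, 41 were lower and 1 was higher within L, and 21 were lower and 1 was higher within M, with medians of -0.82 and -0.46. Those lower made up 73.2% and 37.5%. Of the 57 listed, 47 averaged 1 FPKM or more in L-cDC1 and 51 in M-cDC1, against 56 in each cDC2 group. Some may thus have entered the tests through the cDC2 libraries, and no count was made without them. Espl1, which encodes separase, was lower, at -1.74 within L and -1.41 within M, and Spc25 of the kinetochore was lower at -1.47 within L. Cks1b, a partner of Cdk1 and of the ubiquitin ligase SCF, ran the other way within M, with a rise of 0.84, to 104 ± 16.5 FPKM in M-cDC1, against 57.2 ± 8.83 in M-cDC2.

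Regulators upstream of the cycle held calls in both directions. Of 32 regulators of the G1 phase tested, 12 were lower and 2 were higher in L-cDC1 than in L-cDC2, and 8 were lower and 2 were higher in M-cDC1 than in M-cDC2. Those lower made up 37.5% within L and 25% within M, beside 26.6% and 25.4% of all genes, so within M the share was that of the background. The firmest calls were for D cyclins, which start the cycle with Cdk4 and Cdk6. Ccnd1 averaged 18.1 ± 2.16 FPKM in L-cDC1, against 84.6 ± 10.2 in L-cDC2, and 14.0 ± 1.69 in M-cDC1, against 88.5 ± 6.43 in M-cDC2. It was lower in cDC1, at -2.16 within L (limma adjusted p = 1.22e-08) and -2.58 within M (adjusted p = 1.91e-09). Ccnd2 was lower as well, at -3.01 within L and -2.79 within M, with 1.42 ± 0.39 FPKM in L-cDC1, against 18.4 ± 1.64 in L-cDC2, and 1.14 ± 0.24 in M-cDC1, against 13.7 ± 1.19 in M-cDC2.

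Of 7 inhibitors of cyclin-dependent kinases tested, Wee1 and Pkmyt1 included, 5 were lower and 1 was higher in cDC1 within L, and likewise within M, so that 71.4% were lower in each, beside 26.6% and 25.4% of all genes. Cdkn2b (p15) was lower, at -2.28 within L and -2.60 within M, with 0.68 ± 0.61 FPKM in L-cDC1, against 7.11 ± 3.16 in L-cDC2, and 0.81 ± 0.45 in M-cDC1, against 9.82 ± 2.205 in M-cDC2. Its cDC1 means lay under the 1 FPKM of the filter, so its entry into the tests rested mainly on the cDC2 libraries. The 5 lower genes include it. Cdkn1a (p21) was the one that rose, by 1.59 within L and 0.86 within M (limma adjusted p = 2.11e-05 and 0.0036), to 8.53 ± 2.21 in L-cDC1, against 2.13 ± 0.36 in L-cDC2, and 8.03 ± 1.67 in M-cDC1, against 3.94 ± 0.51 in M-cDC2. Of 9 genes linked to quiescence or slowed growth, 3 (33.3%) were lower in cDC1 within L, a share near that of all genes, 6 (66.7%) were lower within M, and 0 were higher. Klf4 and Btg1, which restrain proliferation in several cell types, were lower at -1.75 and -1.14 within L and at -1.58 and -1.22 within M. None of these 5 lists held a gene that limma called between L and M in cDC1 or in cDC2, or in the interaction.

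Markers of other cell types moved along with some of these comparisons. Of 14 B cell markers tested, 10 were lower and 1 was higher in L-cDC1 than in L-cDC2, and 6 were lower and 3 were higher in M-cDC1 than in M-cDC2. Those lower made up 71.4% within L and 42.9% within M. Of all genes tested, 26.6% and 25.4% were lower, and 12.9% and 12.7% were higher. The sum of all 16 was 630 to 1008 FPKM in L-cDC1 libraries and 348 to 392 in M-cDC1, against 1003 to 3487 in L-cDC2 and 420 to 464 in M-cDC2. Of 8 T and NK cell markers tested, 7 (87.5%) were lower in L-cDC1 than in L-cDC2 and 1 (12.5%) was lower in M-cDC1 than in M-cDC2. The sum of all 12 was 11.4 to 20.96 in L-cDC1 and 0.504 to 0.973 in M-cDC1, against 40.7 to 107 in L-cDC2 and 2.08 to 2.69 in M-cDC2. Both sums were also higher in L than in M. Of the B cell markers tested, 7 of 14 were higher in L-cDC1 than in M-cDC1 and 10 of 14 in L-cDC2 than in M-cDC2, and of the T and NK cell markers 3 of 8 and 6 of 8. In these comparisons limma called 0.394% and 1.83% of all genes tested. Of the 12 T and NK cell markers listed, 10 averaged 1 FPKM or more in L-cDC2 and 5 in L-cDC1, against 0 in M-cDC1 and 1 in M-cDC2. Of the 16 B cell markers, 14 did so in each L group, against 8 in M-cDC1 and 9 in M-cDC2. Several markers thus entered the tests through the L libraries. In the M groups Pax5, Cd3g and Cd28 were listed at 0. The part of these cells in the values of division genes was not tested, within L or within M.

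Monocyte and macrophage markers summed highest in M-cDC2, and their sums overlapped between L-cDC1 and L-cDC2. The 9 of them summed to 327 to 337 FPKM in L-cDC1 libraries and 428 to 488 in M-cDC1, against 317 to 477 in L-cDC2 and 1014 to 1225 in M-cDC2. Of 7 tested, 4 were lower and 1 was higher in L-cDC1 than in L-cDC2, and 5 were lower and 2 were higher in M-cDC1 than in M-cDC2. Those lower made up 57.1% within L and 71.4% within M, beside 26.6% and 25.4% of all genes. In L minus M, 3 of 7 (42.9%) were lower in cDC2, where 1.83% of all genes were called. In cDC1 0 were called, and the interaction called 1. The 11 erythroid and platelet markers had higher sums in cDC1, at 32.4 to 51.2 in L-cDC1 and 23.3 to 24.8 in M-cDC1, against 11.5 to 16.7 in L-cDC2 and 8.73 to 14.4 in M-cDC2. The 7 markers of plasmacytoid dendritic cells summed to 69.0 to 89.3 in L-cDC1 and 60.7 to 71.8 in M-cDC1, against 75.2 to 115 in L-cDC2 and 40.4 to 45.4 in M-cDC2. Plasma cell markers, 7 in number, summed to between 81.0 and 124 in all libraries, and the 7 neutrophil markers reached 2.55 at most. In L minus M, 1 of 5 plasma cell markers tested was higher in cDC1 and likewise 1 in cDC2, and 0 were lower. Of 4 plasmacytoid markers tested, 1 was higher in each subset and 0 were lower. These comparisons called 0.394% and 1.83% of all genes. The 7 progenitor markers summed to 216 to 245 in L-cDC1 and 218 to 244 in M-cDC1, against 181 to 220 in L-cDC2 and 197 to 230 in M-cDC2. Those sums hide calls in both directions. Of 4 tested, 2 (50%) were lower and 1 was higher in cDC1, within L and likewise within M. Of all genes, 26.6% and 25.4% were lower. Differences of the 4 ran from -1.68 to 0.80 within L and from -1.43 to 0.45 within M. The part of these cell types in the values of division genes was not tested.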

How the data were processed

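RNA-seq values of 12 libraries from sorted mouse spleen cDCs, 3 in each of 4 groups, were analysed from 1 deposited table. The authors deposited FPKM, per the file's name and its gene length column, with no log and no counts beside it. Per the labels' protocols, cDNA was made with a SMART-Seq HT kit and libraries with a Nextera XT kit, which do not mark strand. Per the submitters' processing notes, the aligner STAR 2.7.9a and the counter featureCounts 2.0.1 were used, as were the trimmers Trim Galore 0.6.7 and cutadapt 3.7, Trimmomatic 0.39 and, for an unstated purpose, DESeq2 1.20.0. The notes name the human build GRCh38, although the symbols are those of the mouse.

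Whole reads could be recovered: multiplied by gene length, 100% of values in every library were whole numbers of reads within 0.01 read. Totals so recovered were 15879864 to 24498235 reads per library, and on 1 kb a count of 3 reads was worth 0.122 to 0.189 FPKM. Such floors cover nothing beyond counting error. The 12434 genes that reached 1 FPKM or more in 3 or more of 12 libraries were tested, as log2(FPKM + 1), which understates the change of low genes. limma 3.58.1 in R 4.3.3 fitted 1 mean per group with the variance prior trended on mean level and 8 residual degrees of freedom, and Benjamini-Hochberg adjustment ran over all genes tested in each of 5 contrasts. The script was tested on simulated data. With 3 libraries a side, the smallest two-sided p of an exact permutation test is 0.1, so none was used.

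Members, lists, tests and alternatives were chosen with earlier results of these data known. Lists covered other replication genes, other mitosis genes, G1 regulators, kinase inhibitors, quiescence genes, and markers of cDC subsets and other cell types. By rule, values per library were given for the 3 members of each class with the highest mean and, per contrast, up to 3 called members with the smallest p. Cdk1, Bub1 and Ccnb1 were added after their values were seen. The other members, and up to 2 called genes per contrast from each list of other cycle genes, were given by group means or differences. The 21 alternatives changed the pseudocount (0.1), the filter (none, or 0.1 FPKM), the scaling, the test (limma-voom on recovered reads), the samples fitted, the intensity trend or the replicate block, or left out 1 library. Promoter windows are RefSeq's on GRCm38.p6, and motifs were matched as exact letters on both strands.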

Additional observations from a re-analysis of the deposited data

How the results depend on the processing

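Over 21 alternatives, the count of G2/M members lower in cDC1 stayed at 19 to 25 of 26 within L. Leaving out 1 library gave 21 to 25 within L and 9 to 18 within M. Median-of-ratios scaling gave 10 and quantile normalization 7 within M, where 2271 and 1967 of the 12434 genes tested were lower. The count of S phase members called within M was 3, and 1 without a filter, with the filter at 0.1 FPKM, with median-of-ratios scaling (higher), with quantile normalization, with only the 2 groups compared and with no intensity trend, and 1 to 4 with 1 library left out. It was 1 without L-cDC1 replicate 1, M-cDC1 replicate 1, L-cDC2 replicate 1, L-cDC2 replicate 3 or M-cDC2 replicate 2. Within L the count was 5, and 1 with median-of-ratios scaling, 3 with quantile normalization and 3 to 6 with 1 library left out (3 without L-cDC1 replicate 3). In L minus M, S phase members stayed at 0 throughout, and G2/M members at 0 in cDC2; in cDC1 and in the interaction they were 0 to 1 with 1 library left out, the 1 being Cdk1 without L-cDC1 replicate 2. The causes of these shifts were not tested.

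Counts over all genes moved as well. L-cDC1 minus M-cDC1 called 49, with 80 at a pseudocount of 0.1, 14 with no filter, 17 with only the 2 groups compared and 24 to 102 with 1 library left out. L-cDC2 minus M-cDC2 called 227, with 137 for only the 2 groups compared and 146 to 232 with 1 library left out. The interaction called 37, with 21 at a pseudocount of 0.1, 10 with limma-voom and 10 to 38 with 1 library left out.

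Among the 12 members named by rule, only uncalled differences changed sign. Median-of-ratios scaling put L-cDC1 minus M-cDC1 at -0.0266 for Mcm3 and -0.0278 for Top2a (-0.0567 with quantile normalization), L-cDC2 minus M-cDC2 at -0.0170 for Mcm3, and L-cDC1 minus L-cDC2 at 0.12 for Mcm6. With 1 library left out, L-cDC1 minus M-cDC1 ran from -0.135 to 0.11 for Mcm3, -0.105 to 0.24 for Rrm2, -0.25 to 0.0096 for Cdc20 and -0.0735 to 0.0784 for Top2a. L-cDC2 minus M-cDC2 ran from -0.12 to 0.0804 for Pcna, -0.13 to 0.000487 for Mcm6, -0.12 to 0.0856 for Mcm3, -0.23 to 0.0873 for Mcm4 and -0.0186 to 0.38 for Top2a. L-cDC1 minus L-cDC2 ran from -0.147 to 0.0451 for Mcm6. The interaction ran from -0.15 to 0.13 for Mcm3, -0.145 to 0.18 for Mcm4, -0.17 to 0.22 for Ccnb2, -0.37 to 0.0235 for Top2a and -0.215 to 0.0657 for Tpx2.

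Replicate numbers were not taken to pair the samples, since nothing says that a number marks a shared animal. Deviations correlated across genes at -0.01 to 0.16 for same-numbered pairs (median 0.034, over 0.1 in 3 of 18 pairs). For different numbers they ran from -0.15 to 0.0885 (median -0.018, 0 of 36 over 0.1). Same-numbered pairs thus tended higher, and these values cannot show that the samples are unpaired. With a replicate block, G2/M members called were 24 within L and 18 within M, S phase members 6 and 4, and 0 in the other contrasts. Where an arm kept 2 libraries, its spread was pooled with the other groups.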
